A study of Caenorhabditis elegans with 7 samples.

Results

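The genes described here encode transport proteins for amino acids and vitamins in Caenorhabditis elegans: aat-3, atgp-1 and F52H2.4, which carries the symbol smvt-1 in RefSeq. They were found by their names in the authors' deposited list of probe sets that read higher in DD motor neurons than in all cells. Each of the 3 genes had 1 probe set there, out of 222 named probe sets for 201 genes on that list and 22548 probe sets on the arrays once 77 array controls were left out. No other probe set of these genes could be named.

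The arrays compared 4 samples of DD neurons with 3 samples of all cells. DD neurons release GABA and innervate body muscle from the ventral nerve cord. They came from strain CZ8332, which carries the transgene insertion juIs223 on chromosome IV with mCherry under the ttr-39 promoter and GFP under the ttx-3 promoter, and were sorted for mCherry by flow cytometry. The all-cell samples came from the wild-type strain N2. Larvae of both groups hatched overnight in buffer without food and were arrested at the first larval stage (L1), and RNA of both groups was amplified before labelling. Strain, sorting and cell type therefore changed together and cannot be told apart. The ttx-3 promoter marks other neurons than DD, and a label field of the DD samples names GFP in place of mCherry. The labels name no cultures, so the spread between samples of one group may be technical.

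A heteromeric amino acid transporter is built from a light chain of many membrane spans, which carries the substrate, and a heavy chain of a single span, which takes the pair to the cell surface. In C. elegans the aat genes encode light chains or their relatives, and the atgp genes encode heavy chains. Whether the products of aat-3 and atgp-1 form a pair was not tested. In mammals the sodium-dependent multivitamin transporter, the relative after which smvt-1 is named, takes up biotin, pantothenic acid and lipoic acid. GABA itself is made from the amino acid glutamate.

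All 3 genes read higher in DD neurons than in all cells. The multivitamin transporter relative F52H2.4 had the largest fold, 7.15, followed by the light chain gene aat-3 with 4.30 and the heavy chain gene atgp-1 with 3.17. The lowest DD array exceeded the highest all-cell array for 3 of 3 probe sets, as it did for 6.98% of all tested probe sets. Each of the 3 was also at least 2-fold higher, which together with that separation held for 1.17% of all tested probe sets. The authors had chosen these probe sets as higher on the same arrays, so these values are a description, no test of the difference is given, and nothing is read from the counts. Levels are the deposited RMA values, which are probe set intensities on the log2 scale after background correction and normalization between arrays, and folds are taken from the difference of the group means of these values. In such bulk RNA, a share of cells that express a gene and an amount of RNA per cell cannot be told apart.

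The light chain gene aat-3 (F52H2.2, chromosome X) had RMA values of 10.36, 9.72, 9.54 and 9.78 in DD replicates 1 to 4, against 7.71, 7.80 and 7.71 in all-cell replicates 1 to 3 (log2). The DD arrays spread over 0.82, with replicate 1 highest, while the all-cell arrays lay within 0.09 of each other. The lowest DD array stood 1.74 above the highest all-cell array. The level averaged 9.85 ± 0.35 in DD neurons (SD, n = 4) and 7.74 ± 0.05 in all cells (SD, n = 3), a log2 difference of 2.11 ± 0.21 (SE). This difference ranked 34th of all tested probe sets.

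The heavy chain gene atgp-1 (F26D10.9, chromosome IV) had RMA values of 10.72, 10.42, 10.42 and 10.70 in DD replicates 1 to 4, against 8.81, 8.93 and 8.95 in all-cell replicates 1 to 3 (log2). It was the most even of the 3 genes within the DD group, where its arrays spread over 0.30, and its all-cell arrays spread over 0.14. The groups were separated by 1.47. The level averaged 10.56 ± 0.17 in DD neurons (SD, n = 4) and 8.90 ± 0.07 in all cells (SD, n = 3), a log2 difference of 1.66 ± 0.11 (SE) that ranked 62nd of all tested probe sets. Its pooled SD of 0.14 lay at percentile 8.8 of all tested probe sets, whose median was 0.32.

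The multivitamin transporter relative F52H2.4 (chromosome X) had RMA values of 9.98, 8.88, 8.37 and 9.19 in DD replicates 1 to 4, against 5.97, 6.57 and 6.26 in all-cell replicates 1 to 3 (log2). It was the most variable of the 3 genes in both groups, with DD arrays spread over 1.61 and all-cell arrays over 0.60, yet the groups stayed 1.80 apart. The level averaged 9.11 ± 0.67 in DD neurons (SD, n = 4) and 6.27 ± 0.30 in all cells (SD, n = 3). The log2 difference of 2.84 ± 0.42 (SE) ranked 15th of all tested probe sets, and its pooled SD of 0.55 lay at percentile 84.9. On the all-cell arrays this probe set stood between percentiles 59.1 and 66.1 of the values, and its mean was not far above the array medians of 5.33 to 5.38. Without a detection call or background level, its fold is not exact.

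**Figure D1:**
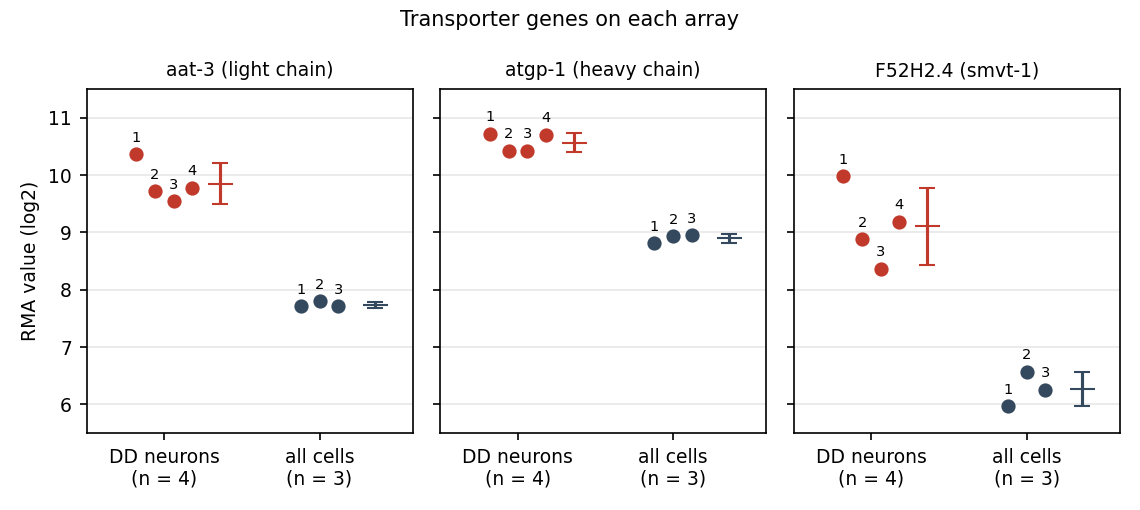
RMA values (log2, vertical axis) of aat-3, atgp-1 and F52H2.4 on each of the 4 DD arrays (red) and 3 all-cell arrays (blue). Numbers beside the points are replicate numbers, and the bars to the right of the points give mean ± SD. For each gene all DD points lie above all all-cell points, and the DD points of F52H2.4 spread most, over 1.61.

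The plot of values by array shows the same separation for all 3 genes and an unequal spread. Among the 222 named probe sets, the groups did not overlap, with DD neurons higher, for 211. The 3 differences had a median of 2.11, beside 1.26 for all named probe sets, none of which was below 1.00, and 0.06 for all tested probe sets. Among the named probe sets alone F52H2.4 ranked 15th, aat-3 34th and atgp-1 57th. By the distance between the lowest DD array and the highest all-cell array they ranked 16th, 19th and 26th of all tested probe sets. On that measure the heavy chain gene stood closer to the other two than by the difference of means.

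**Figure D2:**
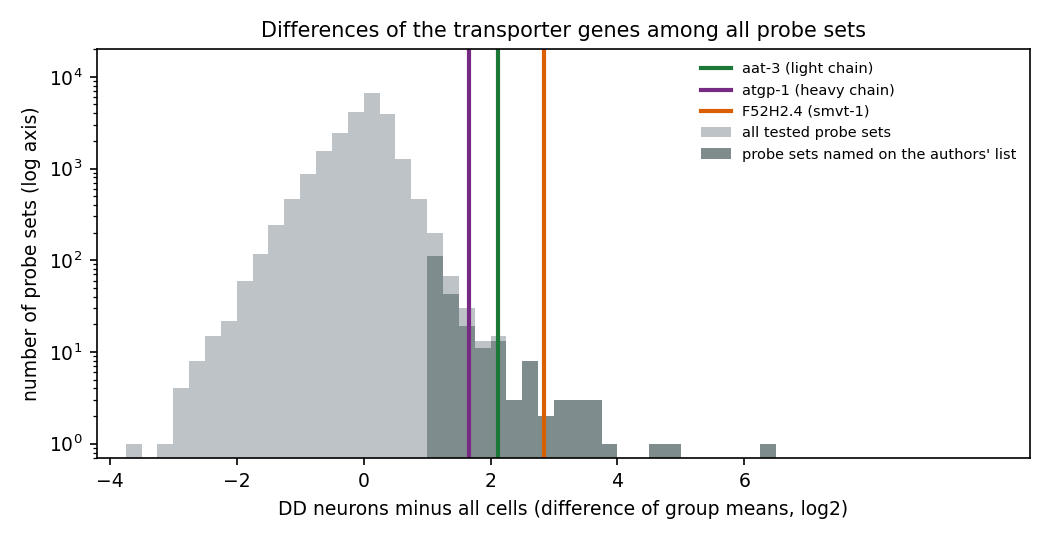
Number of probe sets (vertical log axis) by the difference of group means, DD neurons minus all cells (log2, horizontal axis, bins of 0.25), for all 22548 tested probe sets (light grey) and the 222 named ones (dark grey). Coloured lines mark atgp-1 at 1.66, aat-3 at 2.11 and F52H2.4 at 2.84, all in the upper tail, where nearly all probe sets are on the authors' list.

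The fold differed in size among the 3 genes. The array-by-array differences (any DD array minus any all-cell array) ran from 1.80 to 4.01 for F52H2.4, from 1.74 to 2.65 for aat-3 and from 1.47 to 1.90 for atgp-1 (log2), so the ranges of all 3 genes overlapped. The ratio of 2 genes on the same array cancels any shift of the whole array, and divided by its mean in all cells (a geometric mean) it shows how much larger the fold of one gene was than that of the other. It says nothing about which transcript was more abundant, because probe sets differ in brightness for the same amount of RNA.

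The ratio of light chain to heavy chain, aat-3 over atgp-1, was 1.73, 1.37, 1.21 and 1.18 times the all-cell mean in DD replicates 1 to 4, against 1.04, 1.02 and 0.95 times in all-cell replicates 1 to 3. All DD arrays lay above all all-cell arrays, by 0.19 at the nearest on the log2 scale. The fold of the light chain gene was thus 1.36 times that of the heavy chain gene (log2 0.44 ± 0.15 SE). Replicate 1 was the farthest of the DD arrays, and without it the log2 value was 0.32.

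The ratio of F52H2.4 over aat-3 was 2.14, 1.56, 1.24 and 1.84 times the all-cell mean in DD replicates 1 to 4, against 0.83, 1.18 and 1.02 times in all-cell replicates 1 to 3. The groups were only 0.07 apart on the log2 scale, which is less than the SD within either group (0.34 in DD neurons and 0.25 in all cells). The fold of F52H2.4 was 1.66 times that of aat-3 (log2 0.73 ± 0.23 SE).

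Against the heavy chain gene, the ratio of F52H2.4 over atgp-1 was 3.71, 2.14, 1.50 and 2.17 times the all-cell mean in DD replicates 1 to 4, against 0.86, 1.21 and 0.96 times in all-cell replicates 1 to 3. This was the widest of the 3 contrasts, with the fold of F52H2.4 at 2.25 times that of atgp-1 (log2 1.17 ± 0.34 SE). These contrasts use the same arrays and the same genes that were chosen as higher, so they too are descriptions without a test. In each ratio the gene with the larger fold is the numerator, so the direction is given by the folds. The log2 ratio of F52H2.4 over atgp-1 is the sum of the others, so the 3 contrasts are not separate observations. For how many other gene pairs the groups would be separated was not counted.

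**Figure D3:**
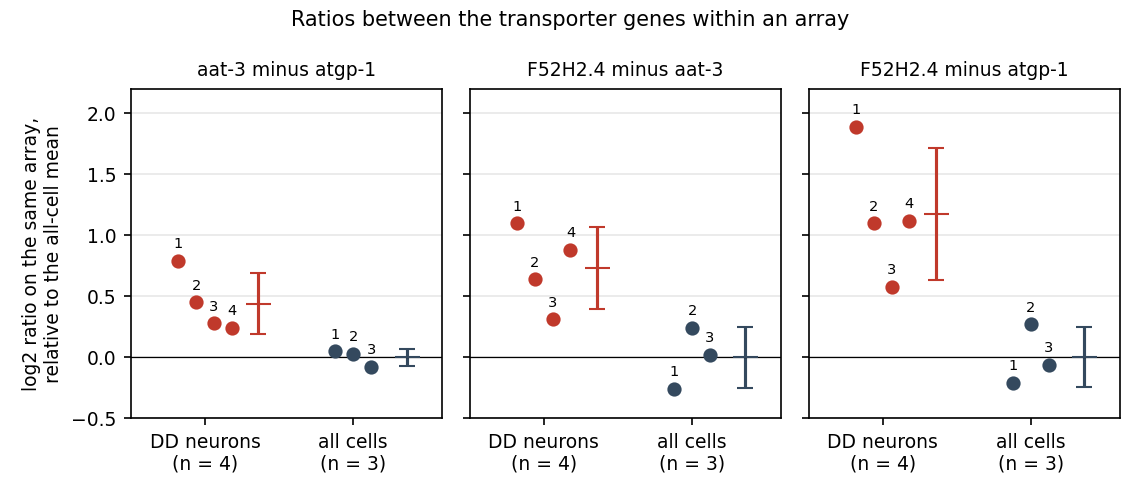
Log2 ratio of 2 genes on the same array, relative to the mean of that ratio in all cells (vertical axis), for the 4 DD arrays (red) and 3 all-cell arrays (blue). Numbers are replicate numbers, and bars give mean ± SD. The gene with the larger fold comes first in each panel. The DD points lie above the all-cell points in each panel, with the smallest distance, 0.07, for F52H2.4 minus aat-3.

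The 4 DD arrays had much the same order in the 3 genes. How far the spread within a group weighed in the authors' choice was not shown, so the order is a description. DD replicate 1 was the highest DD array for all 3 genes, with deviations from the DD mean of 0.87 for F52H2.4, 0.51 for aat-3 and 0.16 for atgp-1 (log2). Replicate 4 came next in each gene, at 0.08, -0.07 and 0.13 in the same order of genes. For aat-3 and F52H2.4 replicate 3 was lowest, at -0.31 and -0.73, and for atgp-1 replicates 2 and 3 were lowest and nearly equal, at -0.15 and -0.14. None of the 4 DD arrays stood apart from the other 3 by Dixon's criterion in any of the genes, the largest gap over range being 0.705 for aat-3.

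Replicate 1 was the highest DD array for 32.9% of the named probe sets and 35.4% of all tested ones. The full order of aat-3 and F52H2.4 (replicates 1, 4, 2, 3) was shared by 15 of the 222 named probe sets, or 6.76%, and by 4.95% of all tested ones. The median deviation of the named probe sets was 0.05 on replicate 1 and 0.08 on replicate 3. A median does not show whether single probe sets shifted. The array controls averaged 6.02 on replicate 1, against 5.78, 5.88 and 5.71 on replicates 2, 3 and 4. What set the high and low values of F52H2.4 on these arrays was not tested. Replicate 1 also had the lowest mean correlation across probe sets with its own group, 0.960 against 0.964 to 0.968 for the other DD arrays. Without it the log2 differences were 1.94 for aat-3, 1.61 for atgp-1 and 2.55 for F52H2.4. The 3 of 3 probe sets remained separated, which leaving out an array cannot undo.

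**Figure D4:**
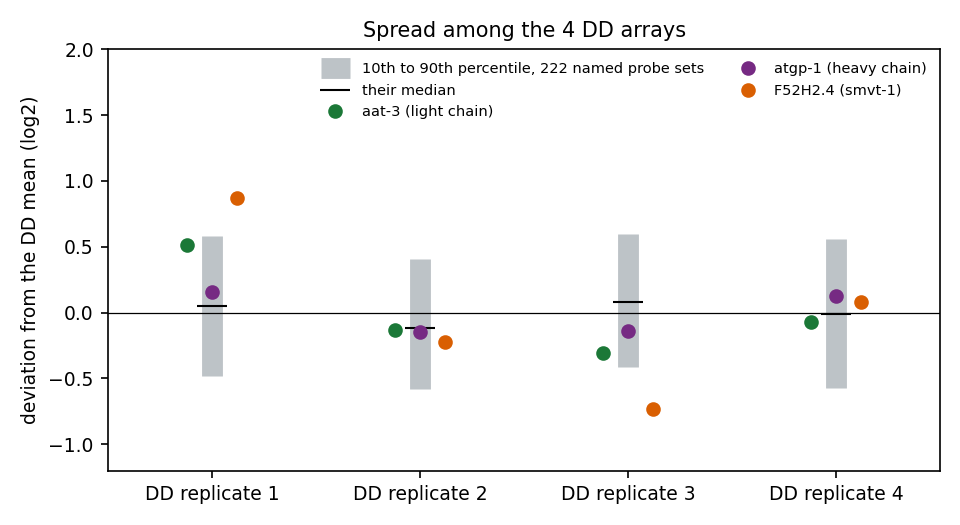
Deviation from the mean of the 4 DD arrays (log2, vertical axis) for aat-3, atgp-1 and F52H2.4 on each DD array. Grey bars run from the 10th to the 90th percentile of the 222 named probe sets and black ticks are their medians. F52H2.4 lies above the grey bar on replicate 1, at 0.87, and below it on replicate 3, at -0.73, while atgp-1 stays inside the bar on all 4 arrays.

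Genes with the most similar profile were sought among the named ones by the root mean square difference over the 7 arrays, after each profile was centred on its own mean. The nearest to aat-3 were M03E7.1 (0.157 log2), sto-2 (0.221), a stomatin-family gene, and oig-1 (0.236), an immunoglobulin-domain gene of DD neurons. Those nearest to atgp-1 were srd-73 (0.177), a gene of a chemoreceptor family, the dynamin gene dyn-1 (0.191) and B0365.1 (0.222), now acly-2. Those nearest to F52H2.4 were oig-1 (0.282), the D-type homeodomain gene unc-30 (0.313) and H14E04.3 (0.399). No unnamed probe set came closer than these 9 entries, which were the first 3 of all tested probe sets for each gene. All were on the list of higher probe sets, and the measure includes the difference between the groups.

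The oig-1 probe set was among the nearest to both X-linked genes. It read 9.23, 8.51, 8.45 and 8.87 in DD replicates 1 to 4, against 6.02, 6.43 and 6.31 in all-cell replicates 1 to 3 (log2), and so had the DD order of aat-3 and F52H2.4. The measure that picked oig-1 uses these same values, so the shared order is no further match. Both M03E7.1 and sto-2, which were nearer to aat-3, had the DD order 1, 2, 4, 3. Of the other neighbours of F52H2.4, unc-30 had the order 1, 4, 2, 3 and H14E04.3 the order 1, 4, 3, 2. The log2 difference of oig-1, 2.51, lay between those of aat-3 and F52H2.4. Among the 3 transporter genes themselves, aat-3 and atgp-1 were 0.277 apart, aat-3 and F52H2.4 0.446, and atgp-1 and F52H2.4 0.692. When profiles were scaled to unit SD, so that size no longer counted, 1 of the 3 nearest genes of aat-3 was shared with the first measure (oig-1), and 0 of those of atgp-1 and of F52H2.4.

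On the scaled measure aat-3 and F52H2.4 were each the third nearest named gene of the other, at 0.124. That measure too includes the step between the groups, on which the list was chosen, so nothing is read from this closeness. On the centred measure F52H2.4 ranked 26th of all tested probe sets for aat-3, and aat-3 ranked 8th for F52H2.4. The gene atgp-1, on another chromosome, was closer to aat-3: it ranked 5th for aat-3, and aat-3 ranked 12th for atgp-1. It ranked 24th for F52H2.4, which ranked 2778th for atgp-1. The genes aat-3 and F52H2.4 are neighbours on chromosome X in RefSeq's gene order (assembly WBcel235), where no other protein-coding gene lies between them. They are 1 of 12 such adjacent pairs among the 196 named genes found there as protein-coding genes. How many pairs a list of this size would hold without regard to position was not computed, so nothing is read from this count. The other X-linked neighbours, F52H2.3 before F52H2.4 and F52H2.5 after aat-3, were not named on the list. The heavy chain gene atgp-1 lies on chromosome IV between str-187, a chemoreceptor-family gene, and gln-5, a glutamine synthetase gene, neither of which was named.

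Few other transporter genes could be set beside these. In 5 lists of 102 transporter genes, 4 genes were named, which were aat-3, atgp-1, F52H2.4 and unc-47. Of all tested probe sets 0.985% were named on the list, but the transporter genes were chosen with the list known, so nothing is read from these counts. Of 11 genes listed for heteromeric amino acid transporters 2 were named. The other aat genes (aat-1, aat-2 and aat-4 to aat-9) and the second heavy chain gene atgp-2 were therefore not analysed here. Of 6 vitamin and cofactor transporter genes, which include the folate carriers folt-1 to folt-3 and the riboflavin transporters rft-1 and rft-2, only F52H2.4 was named. Of 34 neurotransmitter and other amino acid carriers only unc-47, the vesicular GABA transporter, was named, at 7.20 ± 0.20 in DD neurons (SD, n = 4) and 4.67 ± 0.41 in all cells (SD, n = 3), a log2 difference of 2.53 ± 0.23 (SE). Of 50 other solute carriers and of the choline transporter gene cho-1, 0 were named. Whether the unlisted genes differed between DD neurons and all cells was not analysed here.

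Markers could not check the DD label, because those that could be read were all chosen by the authors as higher on these arrays. Of 9 markers of D-type GABA neurons 7 were named, while snf-11 and flp-13 were not and could not be read. For a marker gene with more than 1 named probe set, only the one with the highest mean over all arrays was used. The mean level of the 7 was 9.20 to 9.70 on the DD arrays and 6.51 to 6.92 on the all-cell arrays (log2). On DD replicates 1 to 4 that mean was 9.62, 9.20, 9.39 and 9.70. Replicates 1 and 4 were the upper arrays for this mean and for the transporter genes, but the full orders differed. The marker mean was highest on replicate 4 and lowest on replicate 2. By contrast, aat-3 and F52H2.4 were highest on replicate 1 and lowest on replicate 3. A link between the marker and transporter values was not tested. Of 30 markers of other cell types 5 were named (acdh-1 of intestine, ttn-1 of muscle, ptr-24 of epidermis, pqn-44 of pharynx and pgl-1 of the germ line), and none of AIY interneurons, which the ttx-3 promoter marks. These 5 too were chosen as higher, and the other 25 could not be read. For acdh-1 and pgl-1 the DD and all-cell arrays overlapped. The ttn-1 probe set used had a log2 difference of 1.18, against 2.11 and 1.94 for the other named probe sets of that gene. The mean level of the 5 was 7.61 to 8.08 on the DD arrays and 6.43 to 6.66 on the all-cell arrays. It was 8.08, 7.70, 7.61 and 7.87 on DD replicates 1 to 4, the array order of aat-3 and F52H2.4. None of the 5 probe sets averaged had that order by itself. Among the DD arrays acdh-1 was highest on replicate 4, ttn-1 and pgl-1 on replicate 1, and ptr-24 and pqn-44 on replicate 2. The part of other cells in the transporter values was not tested.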

How the data were processed

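RNA of 7 samples was measured on Affymetrix arrays, 1 array per sample, in groups taken from the sample titles. The authors deposited log2 values; per the submitters' processing notes these were made with RMA, which corrects background, normalizes between arrays and summarises probe sets. The software, its version and the probe set definition are not given in the sources used here, nor is any scan date. From the deposited list of probe sets higher in DD neurons only the gene names and probe set identifiers were used.

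Array controls were left out. Group means, SD and the difference with its pooled standard error were computed with Python 3.11.15, pandas 2.3.3 and numpy 2.4.6, after the same code was tested on simulated data. No p-value was computed, because the list was selected on this contrast. Array medians lay between 5.21 and 5.38, and the number of arrays limits the precision. Gene names were matched to RefSeq (assembly WBcel235) by sequence name, 3 of 3 for the transporter genes.

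The genes named are the 3 transporter genes, all listed transporter genes that have a name on the deposited list, and for each transporter gene the 3 named genes with the nearest profile; neighbouring genes, markers and unnamed list genes are given by lists or position. The genes and lists were chosen with earlier results of these data known. Alternatives were other scalings, group medians, leaving out each array and the replicate number as a block; those for the ratios between genes were chosen after seeing the data.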

Additional observations from a re-analysis of the deposited data

How the results depend on the processing

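All 3 differences stayed positive under every alternative run, and 3 of 3 probe sets stayed separated under every one for which separation was counted. Leaving out an array cannot end a separation or make such a difference negative. The probe sets were also chosen as higher on these arrays, so nothing is read from these counts. Leaving out each array in turn gave log2 differences of 1.94 to 2.21 for aat-3, 1.61 to 1.71 for atgp-1 and 2.55 to 3.08 for F52H2.4. The ratio of aat-3 to atgp-1 then ran from 0.32 to 0.51, that of F52H2.4 to aat-3 from 0.60 to 0.87 and that of F52H2.4 to atgp-1 from 0.93 to 1.37. Centring each array on the array controls, which averaged 0.357 higher in DD neurons, lowered the differences of aat-3 to 1.75, of atgp-1 to 1.31 and of F52H2.4 to 2.48. By construction it takes that amount from every probe set and leaves the ratios as they are. Centring on array medians gave 2.19, 1.74 and 2.92 in the same order of genes, and quantile normalization 2.18, 1.74 and 2.92. Group medians gave 2.03, 1.63 and 2.77. With the array controls kept among the probe sets, 7.04% were separated with DD neurons higher, against 6.98% without them. Both groups have repeats 1 to 3 in their titles, with nothing said of what a number shares. Deviations from the group means of same-numbered arrays correlated across probe sets at -0.005, 0.070 and 0.086, so the numbers were not taken to pair the samples, and DD replicates 1 and 2 each correlated best with an all-cell array of another number. With the replicate block the differences were 2.13 for aat-3, 1.62 for atgp-1 and 2.81 for F52H2.4, and the ratios 0.51, 0.68 and 1.19. The deposited values give no measure of signal over background, so the folds are not exact.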
